A study of Mus musculus with 6 samples.

Results

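Tetraspanins are small membrane proteins that cross the membrane 4 times and bind one another and other surface proteins, which gathers receptors, integrins and proteases into patches known as tetraspanin webs. In leukocytes they are known for holding co-receptor complexes together, for adhesion and migration, and for the traffic of vesicles. Natural killer cells (NKC), cytotoxic lymphocytes that kill infected or transformed cells, carry several of them. The 10 tetraspanin genes described here were Cd9, Cd37, Cd53, Cd63, Cd81, Cd82, Cd151, Tspan13, Tspan31 and Tspan32, and their members on the array were all probe sets, groups of short oligonucleotides, whose only gene symbol in the platform annotation was one of these names. That rule gave 21 of the 45101 probe sets, for 9 of the 10 genes. Cd63, a tetraspanin of late endosomes and of cytotoxic granules, had no such probe set and was not analysed here.

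The arrays read RNA of resting NKC, freshly taken from spleen by negative selection and sorting for DX5, from ICR mice 6 weeks old. There were 3 arrays of Runx3-/- mice, which lack the transcription factor Runx3, and 3 of wild type (WT) mice, Runx3 +/+. The design text gives 1 mouse per sample, while the sex label reads male and female for every sample. DX5 is CD49b, encoded by Itga2, and other blood cells carry it as well. The labels name no tissue or promoter to which the loss of Runx3 was limited.

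Values are log2 signals after GC-RMA, a method that removes a background set by base content and brings the arrays to a common distribution. A probe set was tested where it reached log2 5 on at least 1 array, which 19120 probe sets did, 17 of the tetraspanin ones among them. Differences are Runx3-/- minus WT, with standard error (SE) and 95% interval from limma, and p-values adjusted by Benjamini-Hochberg (BH) over all 19120. A probe set met the study's thresholds with an unadjusted p under 0.05 and a change of at least 1.5-fold. GC-RMA signals of different probe sets are not on a shared scale, so no level was compared between genes, and in bulk RNA fewer cells of a type and less RNA per cell cannot be told apart.

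Runx3 itself was 5.59-fold lower in Runx3-/- on its brighter probe set, 1440275_at (limma adjusted p = 0.096). It had log2 signals of 7.76, 8.51 and 8.68 in Runx3-/- and 10.11, 11.56 and 10.73 in WT, so that the groups did not overlap and signal remained in Runx3-/-. The dimmer Runx3 probe set, 1421467_at, reached log2 5 on 1 array only. Its difference was -0.70 (SE 0.42) with overlapping groups, and it did not meet the thresholds (limma adjusted p = 0.462). Whether either probe set lies inside the stretch removed in the mutant was not analysed here. The NKC receptor Ncr1 was bright on all 6 arrays, with means of 13.99 ± 0.27 for Runx3-/- and 13.69 ± 0.38 for WT (SD, n = 3 each). Correlations between arrays over the tested probe sets were 0.944 to 0.972 within the groups and 0.925 to 0.958 between them, and on the first principal component, with 41.6% of the variance, WT replicate 1 lay closest to the Runx3-/- arrays.

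Among the tetraspanins, Cd81 and Tspan32 were higher and Tspan13 was lower in Runx3-/- at the study's thresholds. Cd81, a tetraspanin of many lymphocyte surface complexes, was 4.11-fold higher. Tspan32, a tetraspanin largely restricted to blood cells, was 2.27-fold higher on 1 of its 2 probe sets. Tspan13, a widely expressed and less studied member, was 1.59-fold lower on 1 of its 2 probe sets. These 3 probe sets were 17.6% of the 17 tested, beside 13.6% of all tested probe sets, of which 6.85% were higher and 6.78% lower. None of the 17 passed BH 5%, which 0.0837% of all tested probe sets did, and the lowest adjusted p among them was 0.108. At an unadjusted limma p under 0.05 there were 3 of the 17, against 2845 of all 19120 tested probe sets. The groups did not overlap in 5 of the 17, or 29.4%, against 21.7% of all tested probe sets. The differences of the 17 had a median of 0.01 on the log2 scale, against -0.06 over all tested probe sets, with 9 above 0 and 8 below.

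**Figure D1:**
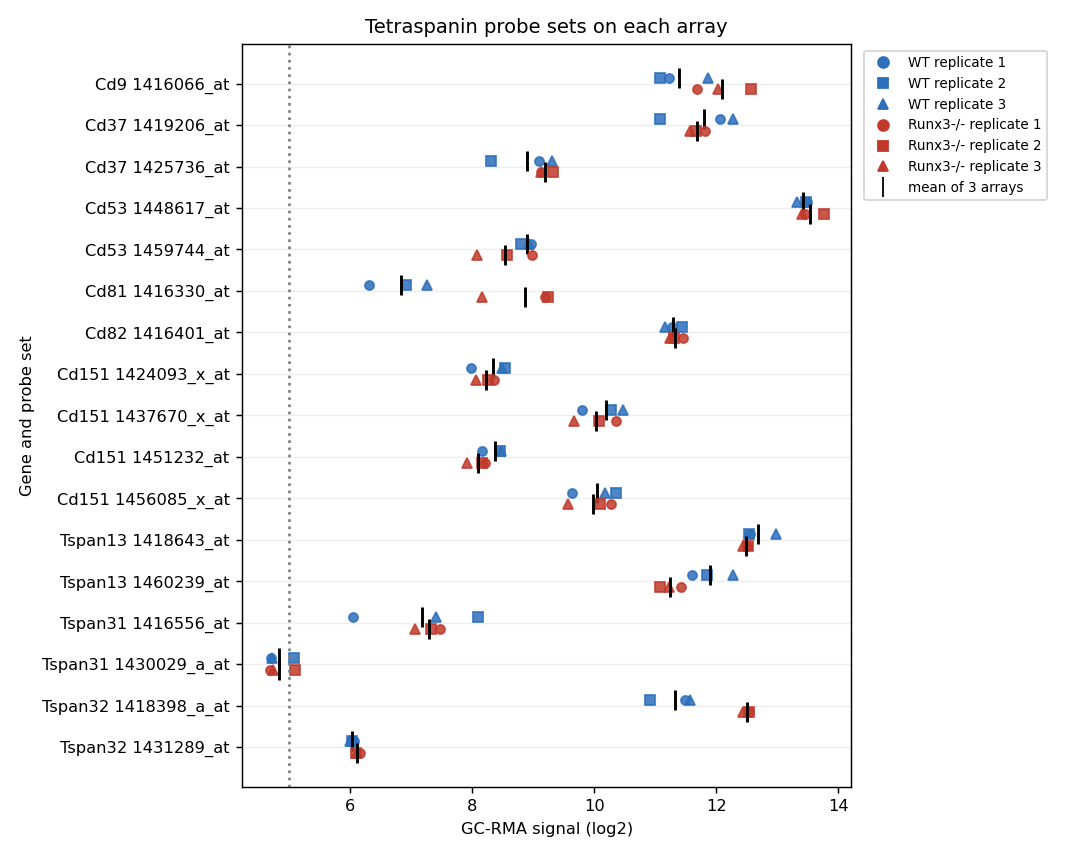
GC-RMA signal (log2, horizontal axis) of the 17 tested tetraspanin probe sets on each of the 6 arrays. Symbols mark the replicates, black bars the mean of 3 arrays, and the dotted line the level of log2 5 that a probe set had to reach once. Runx3-/- and WT symbols stand apart for Cd81, between 8.16 and 9.24 against 6.30 and 7.25, and for Tspan32 1418398_a_at, and they lie over each other for most other probe sets.

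The stretches before the transcription starts of these 3 genes are shown because Runx3 binds DNA through the RUNX motif and the 3 genes are those that met the thresholds. The sequences are RefSeq's, build GRCm38.p6, 5′ to 3′ on the strand of the gene, and capitals mark matches to TGNGGN, with T or C in place of each N, on either strand. Cd81 is shown from chr7:143052500-143052749 (plus strand), Tspan13 from chr12:36042479-36042728 (minus strand), and Tspan32 from chr7:143004796-143004906 (plus strand), which ends at the gene's earliest annotated start.
Cd81: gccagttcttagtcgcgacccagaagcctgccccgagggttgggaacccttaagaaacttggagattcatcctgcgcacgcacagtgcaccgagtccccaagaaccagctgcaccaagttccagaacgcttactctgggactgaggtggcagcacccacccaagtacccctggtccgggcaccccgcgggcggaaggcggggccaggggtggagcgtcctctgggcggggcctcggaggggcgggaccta
Tspan13: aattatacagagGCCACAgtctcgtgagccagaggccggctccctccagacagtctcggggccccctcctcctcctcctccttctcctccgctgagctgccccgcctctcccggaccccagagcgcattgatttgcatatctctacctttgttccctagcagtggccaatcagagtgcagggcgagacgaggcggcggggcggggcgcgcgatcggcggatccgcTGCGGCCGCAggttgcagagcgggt
Tspan32: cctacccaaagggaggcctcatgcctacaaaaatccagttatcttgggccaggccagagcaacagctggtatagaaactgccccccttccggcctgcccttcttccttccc
The 250 bases before the Cd81 start held no match. Those before the Tspan13 start held 3, the last 2 of which overlap each other. The table of promoters gives Tspan32 a later start, and its window of 250 bases held 2 such matches, 70 and 41 bases before that later start, the second on the opposite strand. They lie 69 and 98 bases past the earliest start, so only short stretches around them are shown, from chr7:143004966-143004991 and chr7:143004995-143005020.
Tspan32, first match: ctgtgtctgcTGTGGTctgaggtccc
Tspan32, second match: ccactggggaACCACAgaagggagga
Windows of 250 bases with at least 1 match were 38.0% of the 32851 promoters in the table and 5 of the 14 windows of the 10 tetraspanin genes, Tspan32, Tspan13, Cd53 and Cd82 among the genes. A match is a run of letters and not a measured site, and an empty window says only that these letters are not in it.

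Cd81 showed the largest change among the tested tetraspanin probe sets. On its only probe set, 1416330_at, the log2 signal was 9.19, 9.24 and 8.16 in Runx3-/- and 6.30, 6.92 and 7.25 in WT. Every Runx3-/- array was above every WT array, and Runx3-/- replicate 3 was the lowest of its group. The means were 8.86 ± 0.61 (SD, n = 3) and 6.82 ± 0.48 (SD, n = 3), a difference of 2.04 (SE 0.38, 95% interval 1.14 to 2.94) and an interval of 2.20-fold to 7.66-fold for the fold change (limma adjusted p = 0.108). The gene met the study's thresholds under all 15 alternative settings, with differences of 1.77 to 2.39 and adjusted p of 0.0695 to 0.338.

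Genes of some other blood cells were also higher in Runx3-/-. Cd81 is abundant on B cells, and of 9 tested B cell genes of a list of 12, 4 were higher in Runx3-/- at the study's thresholds and none lower. Such lists were read by the brightest probe set of each gene, and over the brightest probe sets of all genes 12.9% were at the thresholds, 4.57% higher and 8.32% lower. The mean log2 signal of the 11 B cell genes with a probe set was 6.76, 6.06 and 5.79 in Runx3-/- and 5.78, 4.86 and 4.89 in WT, and their summed linear signal was 2160 to 4230 in Runx3-/- and 771 to 1670 in WT (exact permutation p = 0.1 on the mean, the smallest that 3 against 3 arrays allow; 0.6 adjusted over 12 lists). Cd79a, a signalling chain of the B cell receptor, was at least 1.74-fold higher with values under log2 5 raised to 5 (5.57, 6.03 and 5.81 in Runx3-/-, and 4.17, 2.36 and 3.49 in WT). Bank1, a B cell adaptor, was 4.55-fold higher and Cd22, an inhibitory receptor of B cells, was 2.74-fold higher, while Pax5 and Vpreb3 stayed below log2 5 on all arrays. Ms4a1, which encodes CD20, was also higher, with 9.58, 8.61 and 8.41 in Runx3-/- and 8.75, 5.53 and 6.32 in WT, groups that overlap (limma adjusted p = 0.308).

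Most of the tested basophil and mast cell genes moved the same way. Of 10 tested genes, 7 were higher and none lower at the thresholds, with a median difference of 1.65, against -0.13 over the brightest probe sets of all genes. The other 3 were Il4, Kit and Cd200r3. Kit differed by 0.09 (SE 0.39) and Cd200r3 by -0.36 (SE 1.08), both with overlapping groups. Il4 differed by 0.89 (SE 0.39) and reached log2 5 on 1 array only. The list's mean log2 signal was 10.19, 9.20 and 9.23 in Runx3-/- and 8.38, 8.02 and 8.43 in WT, and its summed linear signal was 23100 to 40800 and 8300 to 9950 (exact permutation p = 0.1, 0.6 adjusted over 12 lists). Hdc, which encodes the enzyme that makes histamine, was 3.97-fold higher, Cyp11a1, a steroid-making enzyme, was 4.05-fold higher, Ms4a2, a chain of the high-affinity IgE receptor, was 4.89-fold higher, and Mcpt8, a basophil protease, was 3.04-fold higher. Mcpt4, a mast cell protease, stayed below log2 5 and Prss34 had no probe set. Basophils carry DX5, while negative selection and the DX5 sort are meant to remove B cells, and the part of either cell type in the Cd81 signal was not tested.

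The NKC list itself did not differ between the groups beyond the spread of the arrays, with means of 13.37 to 13.62 in Runx3-/- and 13.32 to 13.75 in WT (exact permutation p = 0.7, 0.84 adjusted over 12 lists). Its 1 member of 11 at the study's thresholds was Eomes, a transcription factor of NKC maturation, which was 1.63-fold lower. T cell and neutrophil genes gave no member at the thresholds, among 5 and 7 tested. Monocyte and macrophage genes gave 1 of 9, Adgre1, which was 3.63-fold higher, and their summed signal was 1250 to 14500 in Runx3-/- and 2610 to 6190 in WT, highest in Runx3-/- replicate 1. Among 6 tested dendritic cell genes, H2-Ab1 was 4.01-fold higher and Itgax was 4.01-fold lower. The erythroid list had 1 tested gene, which was not at the thresholds.

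**Figure D2:**
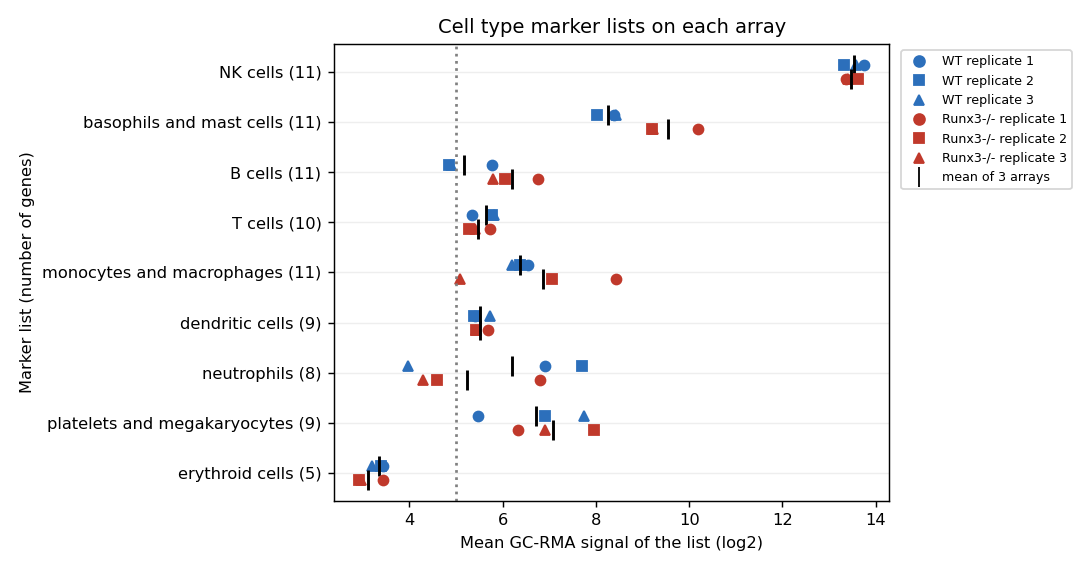
Mean GC-RMA signal (log2, horizontal axis) of 9 cell type marker lists on each of the 6 arrays, with the number of genes in parentheses, black bars at the mean of 3 arrays and a dotted line at log2 5. The basophil and mast cell list and the B cell list had every Runx3-/- array above every WT array, and the NKC list lay at 13.32 to 13.75 on all arrays.

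Cd9, a tetraspanin of platelets, B cell subsets and other leukocytes that partners with Cd81, had log2 signals of 11.69, 12.56 and 12.03 in Runx3-/- and 11.23, 11.08 and 11.86 in WT on 1416066_at. WT replicate 3 lay above Runx3-/- replicate 1, so the groups overlapped. The means were 12.09 ± 0.44 (SD, n = 3) and 11.39 ± 0.41 (SD, n = 3), and the difference of 0.70 (SE 0.32, 95% interval -0.04 to 1.45) did not meet the thresholds (limma adjusted p = 0.351). Cd9 passed the thresholds in 6 of the 15 alternatives and missed them in the other 9. Without WT replicate 3 the difference was 0.94, without Runx3-/- replicate 1 it was 0.90, and with median centring or quantile normalization it was 0.76 or 0.77, each past the thresholds. Without Runx3-/- replicate 2 it was 0.47, without WT replicate 2 it was 0.55 and without WT replicate 1 it was 0.62, each short of them.

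Platelet and megakaryocyte genes were given beside Cd9 because platelets carry much of it. The mean log2 signal of 9 such genes was 6.34, 7.96 and 6.91 in Runx3-/- and 5.48, 6.91 and 7.75 in WT. The groups overlapped (exact permutation p = 0.7, 0.84 adjusted over 12 lists). Of 7 tested, Itgb3, an integrin chain of platelets and other cells, was 3.00-fold higher and Gp1bb, a chain of the platelet receptor for von Willebrand factor, was 1.72-fold lower. Gp6 and Gp9 stayed below log2 5, and the summed linear signal was 2940 to 5080 in Runx3-/- and 1640 to 4820 in WT. The part of platelet RNA in the Cd9 signal was not tested.

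Tspan32, also known as Phemx or Tssc6, is known as a regulator of T cell and platelet responses. On 1418398_a_at the log2 signal was 12.53, 12.54 and 12.43 in Runx3-/- and 11.49, 10.91 and 11.56 in WT. The Runx3-/- arrays lay close together and above every WT array, and WT replicate 2 was the lowest. The means were 12.50 ± 0.06 (SD, n = 3) and 11.32 ± 0.36 (SD, n = 3), a difference of 1.18 (SE 0.24, 95% interval 0.62 to 1.74), or 1.54-fold to 3.35-fold (limma adjusted p = 0.133). Under the 15 alternatives the difference ran from 0.98 to 1.30 with adjusted p of 0.0645 to 0.369, and it met the thresholds in each.

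The other Tspan32 probe set gave a different picture. On 1431289_at the signal was 6.15, 6.09 and 6.11 in Runx3-/- and 6.06, 6.02 and 6.00 in WT, a difference of 0.09 (SE 0.18, 95% interval -0.34 to 0.52; limma adjusted p = 0.844). The groups did not overlap here either, and the interval leaves out a change as large as that of the brighter probe set. Which transcripts each probe set reads was not analysed here.

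Tspan32 and Cd81 are adjacent protein-coding genes of mouse chromosome 7, in a region known for imprinted genes, with the noncoding gene R74862 as the 1 other annotated gene that starts between them. R74862 was at 2.18 to 2.30 on all arrays. Among the 5 protein-coding genes on each side, a window chosen after the values were seen, only Mrpl23, a mitochondrial ribosomal protein, and Tssc4 had a tested probe set. Their differences were -0.07 (SE 0.45, 95% interval -1.13 to 0.99) and 0.05 (SE 0.23, 95% interval -0.49 to 0.60), and neither met the thresholds. The other 8 genes, among them the imprinted Igf2, Kcnq1 and Cdkn1c, stayed below log2 5 on all arrays, where a change in level could not be read.

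**Figure D3:**
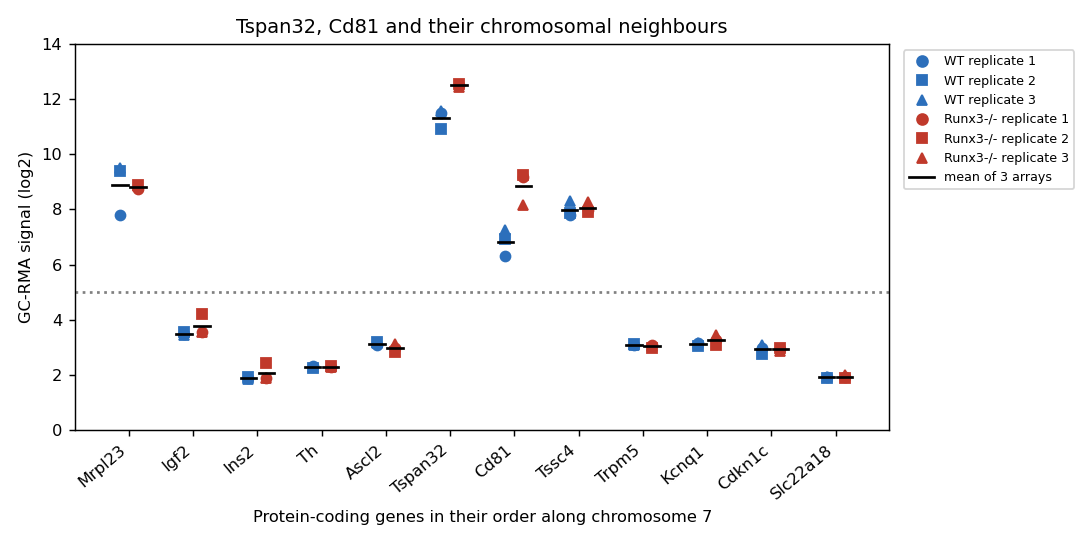
GC-RMA signal (log2, vertical axis) on each of the 6 arrays of Tspan32, Cd81 and 5 protein-coding genes on each side, in their order along chromosome 7 and not to scale, each by its brightest probe set. Black bars are means of 3 arrays and the dotted line is log2 5. Tspan32 and Cd81 had Runx3-/- arrays above WT arrays, Mrpl23 and Tssc4 had overlapping groups, and the other 8 genes lay below the line.

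Tspan13 had 2 probe sets at high signal. The dimmer, 1460239_at, was at 11.42, 11.07 and 11.22 in Runx3-/- and 11.60, 11.84 and 12.27 in WT, every Runx3-/- array below every WT array. Its means were 11.24 ± 0.17 (SD, n = 3) and 11.90 ± 0.34 (SD, n = 3), a difference of -0.67 (SE 0.25, 95% interval -1.24 to -0.09; limma adjusted p = 0.286). The brighter, 1418643_at, was at 12.51, 12.52 and 12.43 in Runx3-/- and 12.55, 12.53 and 12.98 in WT, which differed by -0.20 (SE 0.21, 95% interval -0.70 to 0.30; limma adjusted p = 0.685).

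On the brighter Tspan13 probe set the groups were separate by a narrow margin, with WT replicate 3 alone well above the other 5 arrays. The call on 1460239_at was lost without WT replicate 3, where the difference was -0.48, and without Runx3-/- replicate 2, Runx3-/- replicate 3 or WT replicate 2, where it was -0.59, -0.66 and -0.70. Of the 3 tetraspanins at the thresholds it was the one whose call depended on single arrays.

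Cd37 and Cd53 are tetraspanins found almost only on leukocytes, Cd37 most on B cells. Cd53 1448617_at was bright on all arrays, at 13.45, 13.76 and 13.40 in Runx3-/- and 13.49, 13.47 and 13.32 in WT, a difference of 0.11 (SE 0.20, 95% interval -0.37 to 0.59). Cd53 1459744_at was at 8.97, 8.57 and 8.07 in Runx3-/- and 8.96, 8.80 and 8.93 in WT, a difference of -0.36 (SE 0.27, 95% interval -0.99 to 0.27). The groups overlapped on both, and the Runx3-/- arrays spread more than the WT arrays on the second.

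Cd37 1419206_at was at 11.81, 11.66 and 11.56 in Runx3-/- and 12.06, 11.08 and 12.27 in WT, which gave -0.12 (SE 0.33, 95% interval -0.91 to 0.66). Cd37 1425736_at was at 9.13, 9.32 and 9.12 in Runx3-/- and 9.09, 8.30 and 9.30 in WT, which gave 0.29 (SE 0.30, 95% interval -0.40 to 0.99). WT replicate 2 was the lowest of the 6 arrays on both probe sets, and the groups overlapped. Neither gene met the thresholds, with limma adjusted p of 0.887 and 0.663 for Cd37 and 0.830 and 0.547 for Cd53.

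Cd82 and Cd151 are tetraspanins that bind integrins, Cd151 in particular the laminin-binding ones. Cd82 1416401_at was at 11.45, 11.30 and 11.24 in Runx3-/- and 11.27, 11.44 and 11.16 in WT, a difference of 0.04 (SE 0.20, 95% interval -0.43 to 0.50; limma adjusted p = 0.947). The arrays of the groups were interleaved. A second Cd82 probe set, 1449611_at, was at 2.32 to 2.74 and was not tested.

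Cd151 had 6 probe sets, of which 4 were tested. On the brightest, 1437670_x_at, the signal was 10.36, 10.08 and 9.66 in Runx3-/- and 9.80, 10.28 and 10.47 in WT, a difference of -0.15 (SE 0.28, 95% interval -0.80 to 0.51). The other tested ones, 1456085_x_at, 1424093_x_at and 1451232_at, differed by -0.07, -0.11 and -0.27, with limma adjusted p from 0.556 to 0.926 over the 4. All 4 overlapped between groups and had a difference below 0, and the suffix x marks probe sets whose oligonucleotides can also read other transcripts. The remaining Cd151 probe sets, 1420921_at at 2.12 to 2.26 and 1427525_at at 3.32 to 3.71, were not tested.

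Tspan31, a tetraspanin first known from its amplification in sarcomas, had the largest spread among WT arrays of the 17 tested probe sets of the 9 genes. On 1416556_at it was at 7.47, 7.32 and 7.06 in Runx3-/- and 6.04, 8.09 and 7.41 in WT, with means of 7.28 ± 0.21 (SD, n = 3) and 7.18 ± 1.04 (SD, n = 3). WT replicates 1 and 2 were the lowest and highest of all 6 arrays. The difference was 0.10 (SE 0.49, 95% interval -1.05 to 1.26; limma adjusted p = 0.938), and without WT replicate 1 it was -0.46, so no direction can be given. Tspan31 1430029_a_at lay around log2 5, at 4.68, 5.10 and 4.73 in Runx3-/- and 4.70, 5.07 and 4.71 in WT, and another probe set, 1455853_x_at, was at 3.94 to 4.25 and was not tested.

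Over the 14 tested probe sets that did not meet the thresholds, the differences ran from -0.36 (Cd53 1459744_at) to 0.70 (Cd9). The 95% interval excluded a change of 2-fold either way for 12 of the 17 tested probe sets. A p that misses the threshold does not show that the levels were equal.

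**Figure D4:**
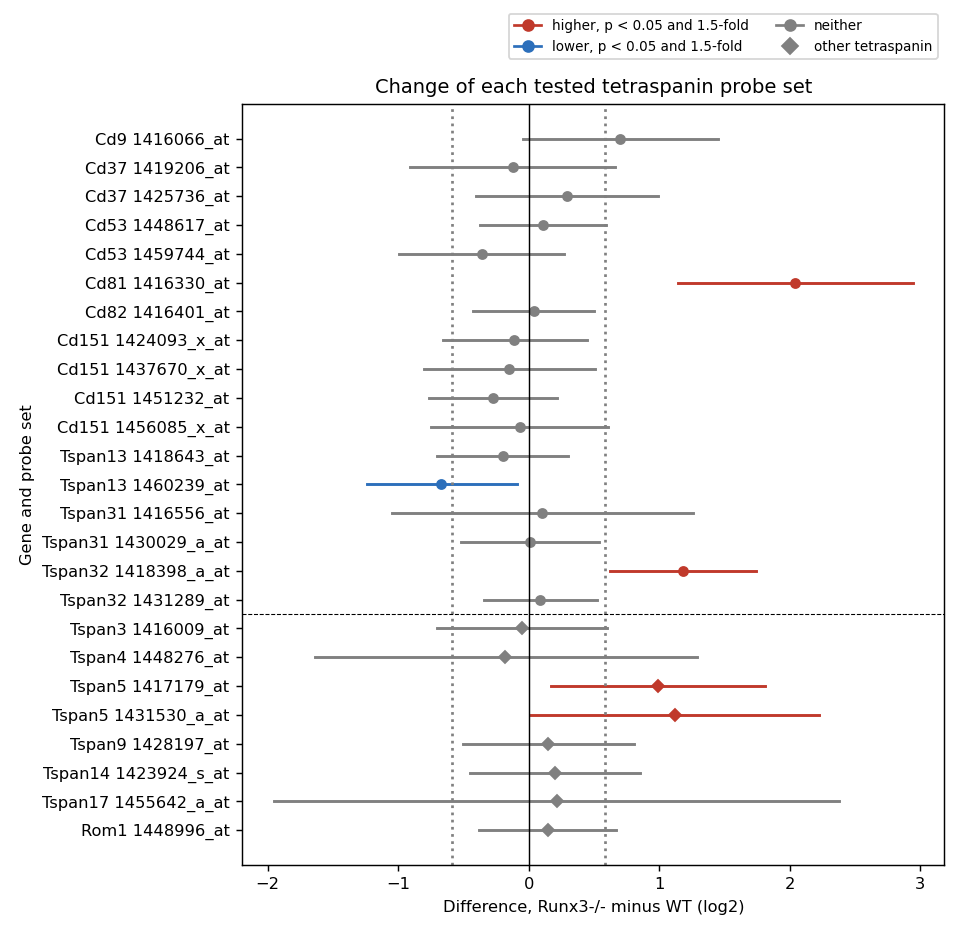
Difference between Runx3-/- and WT (log2, horizontal axis) of the 17 tested probe sets of the 9 tetraspanin genes (circles) and, under the dashed line, of 8 probe sets of other tetraspanins (diamonds), with 95% intervals from limma. Dotted lines mark 1.5-fold either way, red marks a higher and blue a lower signal in Runx3-/- at the study's thresholds. Cd81, Tspan32 1418398_a_at and both Tspan5 probe sets were higher and Tspan13 1460239_at was lower.

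Probe sets of the same gene were compared within each array, as the brightest minus the other, for 8 pairs. For Tspan32 this gap was 6.38, 6.45 and 6.32 in Runx3-/- and 5.43, 4.89 and 5.55 in WT, wider by 1.09 in Runx3-/-. The Tspan13 gap was 1.09, 1.45 and 1.21 in Runx3-/- and 0.96, 0.69 and 0.71 in WT, wider by 0.47. For Cd37 it was 2.69, 2.35 and 2.44 in Runx3-/- and 2.97, 2.78 and 2.97 in WT, which is -0.42. In these 3 pairs the groups did not overlap, and the exact two-sided permutation test gave p = 0.1, the smallest that the 20 assignments of 6 arrays allow (0.267 adjusted over 8 pairs). The Cd53 gap was wider by 0.47 in Runx3-/- with overlap (exact permutation p = 0.3), and the 3 Cd151 pairs and the Tspan31 pair differed by -0.07 to 0.12 (exact permutation p of 0.5 to 0.9).

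**Figure D5:**
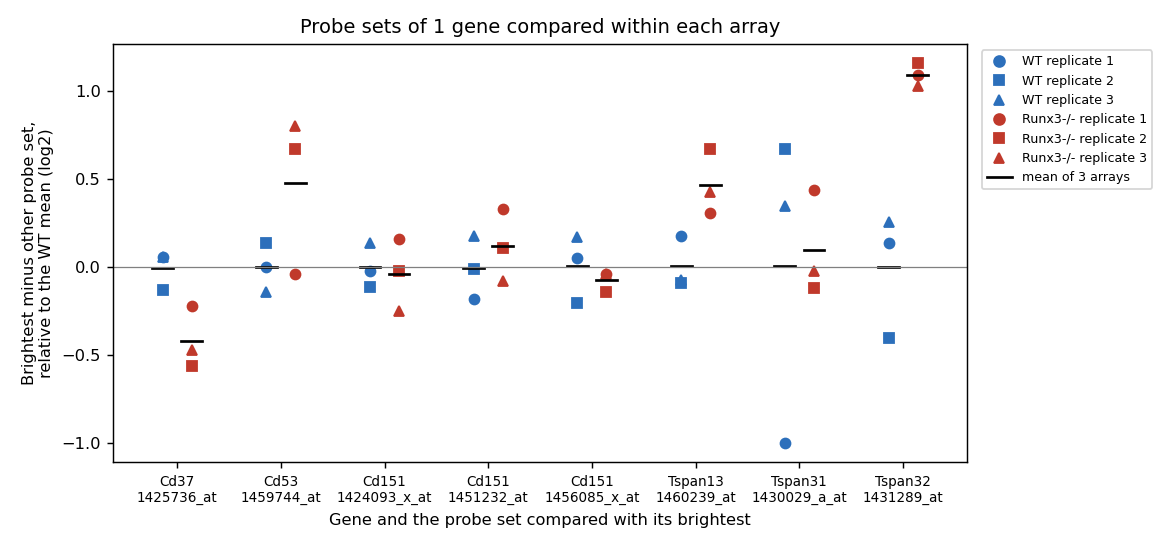
Gap between the brightest and another probe set of the same gene (log2, vertical axis), shown relative to the mean gap of the 3 WT arrays, for 8 pairs on each of the 6 arrays. The horizontal axis names the gene and the probe set set against its brightest, and black bars are means of 3 arrays. Tspan32 and Tspan13 had every Runx3-/- array above every WT array and Cd37 every Runx3-/- array below.

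Of 21 further tetraspanins on a list, 20 had a probe set, and 13 of these stayed below log2 5 on their brightest one. The 8 tested probe sets belonged to 7 genes, and 2 of them, 25.0%, were higher at the thresholds and none lower, with a median of 0.18. Over all tested probe sets 13.6% were at the thresholds, 6.85% higher and 6.78% lower, and the median was -0.06. The 2 higher probe sets both read 1 of the 7 genes, Tspan5, a tetraspanin that escorts the protease Adam10 to the cell surface.

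Tspan5 1417179_at was at 9.48, 9.77 and 10.48 in Runx3-/- and 8.58, 8.74 and 9.44 in WT. The groups were separate, narrowly so between Runx3-/- replicate 1 and WT replicate 3, and replicate 3 was the highest in each. The difference was 0.99 (SE 0.35, 95% interval 0.17 to 1.81), or 1.99-fold (limma adjusted p = 0.27). Tspan5 1431530_a_at was at 5.95, 6.18 and 5.92 in Runx3-/- and 5.31, 3.76 and 5.61 in WT, at least 1.64-fold higher with values under log2 5 raised to 5 (limma adjusted p = 0.329).

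Tspan14, which also escorts Adam10, differed by 0.20 (SE 0.28), and Tspan17, another such escort, reached log2 5 on 2 of 6 arrays, so no direction is given for it. Tspan3, Tspan4, Tspan9 and Rom1 differed by -0.18 to 0.15, and none of these 6 genes was at the thresholds. Tspan6 was below log2 5 on all arrays and was not tested, although its values on 1448501_at, 2.71, 3.01 and 3.03 in Runx3-/- and 3.69, 4.21 and 4.87 in WT, did not overlap. Tspan7 had no probe set of a single symbol.

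Proteins that tetraspanins bind were read from a list of 30, of which 25 were tested by their brightest probe set. Of these, 3 were higher, 1 was lower and 21 were not at the thresholds, with a median of 0.19. Over the brightest probe sets of all genes 12.9% were at the thresholds, 4.57% higher and 8.32% lower, and the median was -0.13. Ifitm1, an interferon-induced membrane protein found in complexes with Cd81, was at 12.86, 12.55 and 12.03 in Runx3-/- and 10.71, 10.85 and 11.26 in WT. Its groups were separate, and it was 2.91-fold higher (difference 1.54, SE 0.28; limma adjusted p = 0.107).

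The integrin chains Itga4, which pairs with Itgb1 in a receptor for fibronectin and Vcam1, and Itga6, a laminin-binding chain, were also higher. Itga4 was at 12.72, 12.35 and 11.84 in Runx3-/- and 11.38, 10.89 and 10.31 in WT, 2.72-fold higher (limma adjusted p = 0.183), and Itga6 was 1.53-fold higher (limma adjusted p = 0.317). Cd2, an adhesion receptor of T cells and NKC, was 1.66-fold lower, at 12.71, 12.77 and 12.78 in Runx3-/- and 13.65, 13.02 and 13.79 in WT (limma adjusted p = 0.267). The partners Itgb1, Adam10, Igsf8 and Itga2 differed by 0.12, 0.35, 0.19 and 0.41 and were not at the thresholds.

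Tetraspanins such as Cd63, Cd37 and Cd82 also sit in late endosomes and lysosomes, and 20 genes of these membranes and granules were all tested. Of the 20, 2 were lower, none was higher and 18 were not at the thresholds, with a median of 0.04; the share lower is near the 8.32% over all genes. Npc1, which exports cholesterol from lysosomes, was at 8.43, 8.06 and 8.54 in Runx3-/- and 10.06, 10.38 and 9.99 in WT. Every Runx3-/- array was below every WT array, and Npc1 was 3.48-fold lower (difference -1.80, SE 0.23; limma adjusted p = 0.0675). Scarb2, a lysosomal membrane protein that carries glucocerebrosidase, was 1.55-fold lower (limma adjusted p = 0.292), while Lamp1, a main glycoprotein of the lysosome membrane, differed by -0.59 without passing (limma adjusted p = 0.338).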

How the data were processed

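RNA of 6 samples, 3 Runx3-/- and 3 WT as grouped by the genotype label, was read on 1 Affymetrix array each. The authors deposited log2 values after GC-RMA for 45101 probe sets, Partek and GCRMA being the tools listed, with no version, in the submitters' processing notes. The labels and the study's methods name different labelling kits, so the kit used stays unknown. The platform annotation gave 34945 probe sets a single symbol, 932 several and 9160 none, with 64 controls left out. No 2 arrays shared more than 0.0111% of their values.

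All 19120 probe sets at log2 5 or more on at least 1 array (37.8% to 39.4% of probe sets per array reached it) were fitted with limma 3.58.1 (lmFit and eBayes, no covariate) in R 4.3.3. The study names its thresholds but no background level or test, so log2 5 and limma were used. The fit was tested on simulated data. Where a WT or Runx3-/- array of the lower group lay below 5, the fold is given as at least its value after raising to 5. Means of lists over brightest probe sets were compared by exact permutation (scipy 1.17.1). Symbols came from the platform annotation. Neighbours came from the RefSeq table of GRCm38.p6, in which 34741 single-symbol probe sets matched by gene identifier.

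The members and lists were chosen with earlier results of these data known. All member probe sets are named, with the genes of smallest p among those at the thresholds, up to 4 per list, Runx3, Itga2 and Ncr1; other genes were added after their values were seen. Alternatives were the filter, the floor, median centring, quantile normalization, trend and robust moderation, array weights, brightest probe sets, a replicate block and leaving out each array. The number of arrays limits the precision, and if samples shared animals p-values cover technical spread alone.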

Additional observations from a re-analysis of the deposited data

How the results depend on the processing

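Over 15 alternatives, Cd81 and Tspan32 1418398_a_at kept their direction and stayed past the study's thresholds, and 3 in place of 2 tetraspanin probe sets were higher where Cd9 passed. The count of lower tetraspanin probe sets, 1 as reported, was 0 with the brightest probe set of each gene, which leaves Tspan13 1460239_at out, and 0 to 1 when an array was left out. The count of all probe sets at BH 5%, 16 as reported, was 58 with brightest probe sets, 6 without a filter, 8 with values raised to log2 5, 31 with trend and robust moderation and 139 with array weights, and 3 to 183 when an array was left out, 183 without WT replicate 1. Counts at the study's thresholds were 467 higher and 846 lower with brightest probe sets (35.6% higher, against 50.3%), 1558 and 1057 with median centring (59.6% higher), and 857 to 2014 higher and 855 to 1817 lower when an array was left out.

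Replicate numbers did not pair the samples (correlations of same-numbered deviations 0.00277, -0.158 and 0.133). With the replicate number as a block, 2 probe sets passed BH 5%, 0 tetraspanin probe sets were lower and Tspan13 1460239_at, at -0.67, missed the thresholds (limma adjusted p = 0.358).

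Differences that turned sign were uncalled, and the largest of them was -0.46, for Tspan31 1416556_at without WT replicate 1. With quantile normalization they were 0.012 for Cd151 1456085_x_at, -0.14 for Tspan31 1430029_a_at and -0.017 for Tspan32 1431289_at. With array weights they were 0.029 for Cd37 1419206_at, -0.031 for Cd82, -0.29 for Tspan31 1416556_at and -0.047 for Tspan31 1430029_a_at. Leaving out an array gave -0.34 to 0.04 for Cd151 1437670_x_at, -0.28 to 0.13 for Cd151 1456085_x_at, -0.49 to 0.11 for Cd37 1419206_at, -0.0079 to 0.50 for Cd37 1425736_at, -0.0044 to 0.18 for Cd53 1448617_at, -0.029 to 0.11 for Cd82, -0.46 to 0.56 for Tspan31 1416556_at and -0.12 to 0.13 for Tspan31 1430029_a_at. The causes were not tested.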
